A study of Mus musculus with 14 samples.

Results

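The late step of Ocy454 maturation, from day 10 to day 14 of differentiation, was examined across the transcriptome. These mouse cells resemble osteocytes and carry a heat-sensitive viral oncoprotein (large T antigen), so that they multiply at a lower temperature and mature on plastic once kept warmer. The comparison used the 2 libraries of day 10 and the 2 libraries of day 14, which are 4 of the 14 libraries of the study, chosen by their labels alone. All 4 came from the same unmodified line, in the same medium, with poly(A)-selected RNA, and differed by label only in the days at the differentiation temperature. Of the 39179 genes in the differentiation table, 12725 were tested, which had more than 1 CPM in 1 or more of its 8 libraries. CPM is the number of reads on a gene scaled to a common total of reads per library. A further 6 libraries, 3 of CD61high and 3 of CD61low cells sorted on day 17, share no library with this comparison, and their values are set beside it below. The results describe a single cell line, and the time in culture, the cell density and the age of the matrix cannot be told apart from maturation.

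Osteocytes are the most abundant cells of bone. They arise from osteoblasts that become buried in matrix, extend dendrites, secrete sclerostin (the product of Sost, a Wnt antagonist that restrains bone formation) and regulate phosphate through Phex, Dmp1 and Fgf23. Buried cells live far from vessels, and the hypoxia-inducible factors (HIF), which are destroyed by prolyl hydroxylation when oxygen is ample, switch on genes for glucose uptake, glycolysis and oxygen sensing when they are stable. Cholesterol and fatty acid synthesis is controlled by the SREBP transcription factors, which are released from the endoplasmic reticulum when sterols are low.

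The day 10 libraries held 30457415 and 31026870 reads on genes and the day 14 libraries 34311238 and 27518605. Markers of the osteoblast lineage were present in all 4 libraries, where the 5 genes Runx2, Sp7, Col1a1, Alpl and Bglap summed to 23401 and 25175 CPM on day 10 and to 30480 and 25259 CPM on day 14. All 6 endothelial markers stayed at or below 0.254 CPM. The macrophage markers C1qa, C1qb, Tyrobp and Adgre1 (listed as Emr1) were listed at 0 in all 4 libraries, which allows up to 0.0874 to 0.109 CPM at 3 reads per library, a limit that covers counting error only. A listed 0 is not always a lack of RNA, since 6 mitochondrial transcripts that every cell uses were also listed at 0. Of the 10 macrophage markers, Cd68 and Fcer1g passed the filter, and the list summed to 5.71 to 8.19 CPM. Of 7 osteoclast markers only Ctsk, which osteocytes also express, was above 1 CPM, and the osteoclast receptor gene Calcr was listed at 0. Of 8 skeletal muscle markers Myog, Ckm and Actc1 were listed at 0, and the only one tested, the intermediate filament gene Des, rose from 1.71 and 1.19 CPM to 2.59 and 4.36 CPM (Log2FC 0.85). Day 14 replicates differed more than day 10 replicates, with a chi-square per gene of 6.74 against 3.32.

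Between day 10 and day 14, 266 genes were called higher and 111 lower. To be called, a gene needed a Log2FC beyond 1 in either direction together with an adjusted p under 0.01, where Log2FC is the day 14 minus day 10 difference of log2(CPM + 1) and understates the change of genes at low CPM. The called genes were 2.09% of all genes tested for higher and 0.872% for lower. Smaller changes were widespread, as 2909 genes (22.9%) rose and 3812 genes (30.0%) fell at an adjusted p under 0.01 whatever the fold. That split moved with the scaling, to 3508 and 3114 genes with TMM. The median Log2FC over all genes tested was -0.04, and the median size of the change among genes that passed the test was 0.40. Replicates did not overlap between the days in 10185 genes (80% of those tested), among them all 377 called genes, so a lack of overlap sets no gene apart here. Rises reached further than falls, since 39 of the called genes had a Log2FC above 2 and 4 had a Log2FC below -2. In bulk RNA, fewer cells of a type and less RNA per cell cannot be told apart, and whether the libraries of the days were prepared together is not given in the sources used here.

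**Figure D1:**
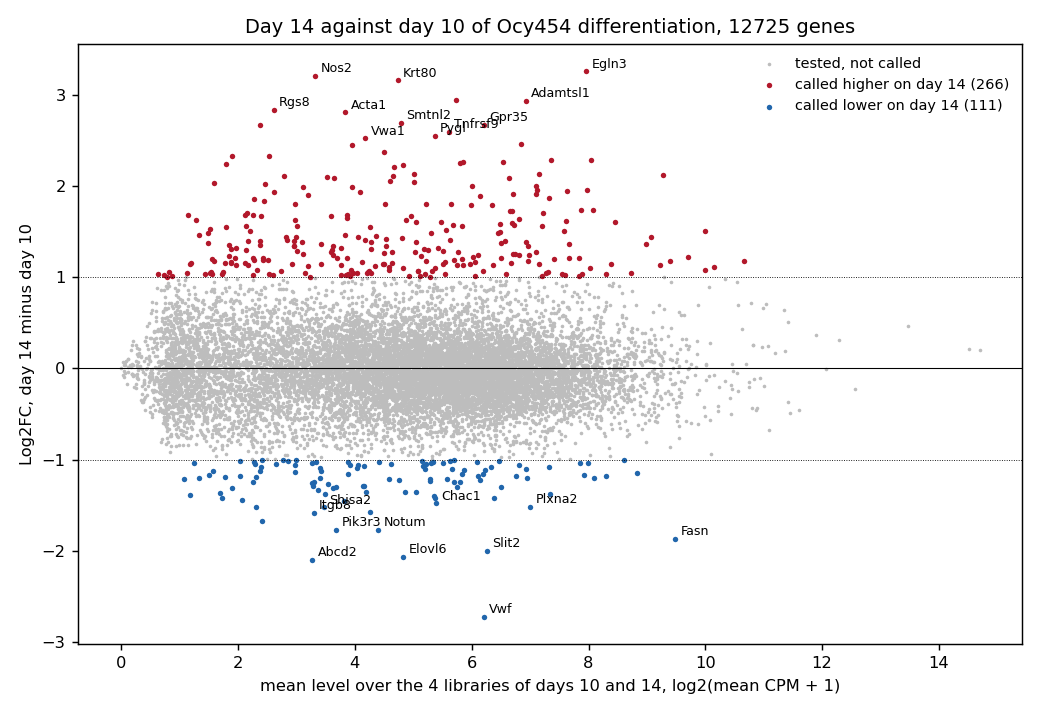
Log2FC between day 14 and day 10 (vertical axis) against the mean level over the 4 libraries on a log2(mean CPM + 1) axis for the 12725 genes tested, with 266 genes called higher in red and 111 called lower in blue; dotted lines mark a Log2FC of 1 and -1 and most of the 12 largest increases and decreases are named. Egln3 at 3.26 is the highest point and Vwf at -2.72 the lowest, and more red than blue points lie beyond 2.

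On the log2(CPM + 1) scale the largest increase was that of Egln3 (ENSMUSG00000035105, chr12:54225767-54250673 in GRCm39). This gene encodes the prolyl hydroxylase PHD3 that marks HIF alpha subunits for destruction. Its level was 51.3 and 41.5 CPM on day 10 and 446 and 454 CPM on day 14. The mean was 46.4 ± 6.91 CPM against 450 ± 6.10 CPM (SD, n = 2), a ratio of 9.70. The Log2FC was 3.26 (SE 0.07, adjusted p = 1.04e-21). Nos2, the inducible nitric oxide synthase, was near the detection filter on day 10 with 1.05 and 0.838 CPM and reached 17.5 and 16.5 CPM on day 14 (Log2FC 3.21, SE 0.13). By ratio of means, Rgs8 (19.3), Nos2 (18.0) and Krt80 (10.7) stood above Egln3. The day 10 levels behind these ratios were low, at 11 and 20 reads for Rgs8 and 32 and 26 reads for Nos2. The Log2FC reached 4.22 for Nos2 with edgeR and 4.31 for Rgs8 with DESeq2 on the recovered reads, and at most 3.41 for Egln3 in any refit. Other genes among the 12 largest increases belonged to several classes.

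Among genes for matrix and secreted proteins, Adamtsl1, an ADAMTS-like protein without a protease domain, was at 28.8 and 25.6 CPM on day 10 and 218 and 210 CPM on day 14. Vwa1, a von Willebrand factor A domain protein of pericellular matrix, was at 4.96 and 3.80 CPM and then at 28.8 and 30.9 CPM. Their Log2FC values were 2.93 and 2.53. Genes for signalling receptors were Gpr35, a G protein-coupled receptor (20.5 and 17.8 CPM, then 127 in both day 14 libraries), and Tnfrsf9, the co-stimulatory receptor CD137 (13.6 and 12.2 CPM, then 79.6 and 86.1 CPM). The annotated span of Gpr35 overlaps that of Capn10 on the same strand. Rgs8, a regulator of G protein signalling, was at 0.361 and 0.645 CPM and then at 9.41 and 9.99 CPM. Cytoskeletal genes were Krt80, a keratin (Log2FC 3.16), Acta1, skeletal alpha actin (Log2FC 2.81), and Smtnl2, a smoothelin-like protein (Log2FC 2.69). Acta1 is nearly identical to other actin genes, so its 2.73 and 2.42 CPM on day 10 and 23.0 and 25.0 CPM on day 14 depend on how shared reads were counted. Pygl, the liver-type glycogen phosphorylase, was at 12 and 10.2 CPM and then at 71.1 and 68 CPM.

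Osteocyte genes did not move as a block. Of 15 tested members of the list, 5 were called higher (33.3% of members in the list read beside 2.09% of all genes). At any fold 10 rose (66.7%) and 1 fell (6.67%), beside 22.9% and 30.0% of all genes, and 4 did not pass the test. The median Log2FC of the list was 0.42, beside -0.04 over all genes tested. The 5 called were Ackr3, Phex, Sost, Itgb3 and Irx5. The study had picked Ackr3 and Itgb3 as marker candidates partly for their rise between day 1 and day 14 in this series. Their calls are therefore not independent of the choice of the list, and the share is a description. Phex (chrX:155945071-156198308), an endopeptidase gene whose loss causes phosphate wasting, was at 18.1 and 19.6 CPM on day 10 and 96.5 and 91.4 CPM on day 14. The day 14 mean was 4.98 times the day 10 mean (Log2FC 2.26, SE 0.09, adjusted p = 1.11e-16). Sost (chr11:101853284-101857847) was at 3.45 and 3.26 CPM and then at 18.0 and 17.3 CPM, a ratio of 5.28 (Log2FC 2.10, SE 0.13, adjusted p = 1.88e-13). Ackr3, the atypical chemokine receptor CXCR7, was at 55.9 and 53.6 CPM and then at 265 and 278 CPM. Itgb3, which encodes CD61, was at 19.6 and 19.9 CPM and then at 56.9 and 57.6 CPM, a ratio of 2.90. Irx5, an Iroquois homeobox factor, was at 71.2 and 67.6 CPM and then at 173 and 182 CPM.

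Among the other members of the osteocyte list, Dmp1, a matrix phosphoprotein taken as an early osteocyte marker, was at 44.3 and 49.0 CPM on day 10 and 52.1 and 57.6 CPM on day 14. Its Log2FC of 0.23 (SE 0.08, adjusted p = 0.0175) did not pass the test here but passed after TMM scaling. Pdpn, the podoplanin gene linked to dendrite outgrowth, had a Log2FC of 0.21 (adjusted p = 0.0140), and Gja1 for a gap junction connexin had -0.12 (adjusted p = 0.0350), with overlapping replicates in Gja1. Fam20c, the kinase that phosphorylates secreted matrix proteins, fell from 211 and 215 CPM to 141 and 146 CPM (Log2FC -0.57). Cd44 (Log2FC 0.42), Capg (0.36) and Tnfrsf11b, which encodes the RANKL decoy osteoprotegerin (0.35), rose by less than the call threshold. Tnfsf11, which encodes RANKL, was at 1.31 and 1.06 CPM and then at 1.40 and 0.908 CPM, and its days overlapped. Dkk1, a secreted Wnt antagonist, rose at a low level from 0.230 and 0.548 CPM to 1.69 and 1.31 CPM, a ratio of 3.86. Its Log2FC was 0.85 on the log2(CPM + 1) scale and 2.00 with edgeR on the recovered reads. Ostn, the secreted peptide osteocrin, rose with a Log2FC of 0.55, from 1.77 and 2.00 CPM to 3.29 and 3.13 CPM. Ostn no longer passed without replicate 1 of day 10 (Log2FC 0.49) or without replicate 1 of day 14 (Log2FC 0.52). Mepe and Fgf23 did not reach the filter. Mepe was at 0.0657 and 0.0322 CPM and then at 0.350 and 0.472 CPM, and Fgf23 was listed at 0 in the 4 libraries.

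**Figure D2:**
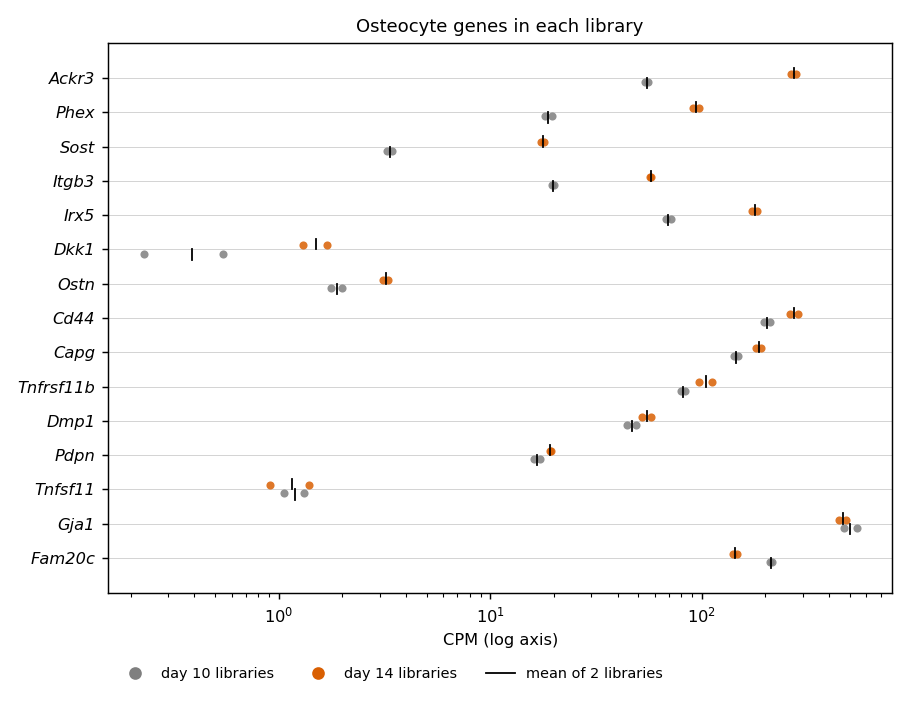
CPM on a log axis for the 15 tested osteocyte genes, with day 10 libraries as grey points, day 14 libraries as orange points and a bar at the mean of 2 libraries. Ackr3, Phex, Sost, Itgb3 and Irx5 show wide gaps between the days, while Dmp1, Pdpn, Tnfsf11 and Gja1 show gaps near the distance between replicates.

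Among the gene lists of this section, genes known as HIF targets held the highest median. Of 26 tested, 16 were called higher, beside 2.09% of all genes. At any fold 23 rose (88.5%) and 2 fell (7.69%), beside 22.9% and 30.0% of all genes, and 1 did not pass the test, with a median Log2FC of 1.16. Besides Egln3, the second prolyl hydroxylase gene Egln1 was at 306 and 271 CPM on day 10 and 765 and 803 CPM on day 14 (Log2FC 1.44). Ndrg1, a stress-responsive growth regulator, was at 235 and 226 CPM and then at 973 and 1032 CPM (Log2FC 2.12, SE 0.04, adjusted p = 1.14e-23). Ak4, a mitochondrial adenylate kinase, was at 19.5 and 17.3 CPM and then at 88.4 and 94.7 CPM (Log2FC 2.26). The gene for the third prolyl hydroxylase, Egln2, which is not in the list and was looked at after the HIF targets, fell from 114 and 111 CPM to 92.5 and 94.4 CPM (Log2FC -0.26). Bnip3, which drives mitophagy, was at 57.8 and 54.6 CPM and then at 212 and 229 CPM, and Ankrd37 was at 4.47 and 3.09 CPM and then at 20 and 18.3 CPM. Ero1a (listed as Ero1l), the oxidase that forms disulfide bonds in the endoplasmic reticulum, was at 40.0 and 34.2 CPM and then at 156 and 166 CPM. Adm, which encodes the vasodilator adrenomedullin, was at 0.263 and 0.0967 CPM and then at 3.58 and 4.07 CPM, so its day 10 level rests on few reads. Mxi1, Car12, Slc16a3, P4ha2, Ndufa4l2, Pdk1 and Car9 made up the rest of the called genes with Slc2a1, and their Log2FC lay between 1.03 and 1.96. The lowest of them, Car9, was at 0.99 and no longer called after a correction for GC content and length. Among them Pdk1, the kinase that keeps pyruvate from mitochondrial oxidation, was at 173 and 157 CPM and then at 346 and 366 CPM, and Car9, a carbonic anhydrase at the cell surface, was at 125 and 120 CPM and then at 250 and 253 CPM.

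Not every gene of the HIF list went up. Pfkfb3, which makes the activator of phosphofructokinase, fell from 72.8 and 86.0 CPM to 54.5 and 56.2 CPM (Log2FC -0.51), and its relative Pfkfb4 fell from 25.7 and 25.5 CPM to 18.4 and 18.5 CPM (Log2FC -0.45). Ddit4, which restrains mTORC1, had a Log2FC of 0.05 (SE 0.05, adjusted p = 0.461). Vegfa, the main angiogenic growth factor, rose from 178 and 167 CPM to 324 and 333 CPM (Log2FC 0.92), short of the call threshold. The labels name no oxygen level or other treatment that differed between the days.

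The 5′ flanks of 5 called members are shown because HIF is known to bind a short core, whose letters can be looked up in RefSeq's promoter table (GRCm38.p6). Capitals mark ACGTG or GCGTG on either strand, the reverse complements being CACGT and CACGC. Each run holds the 250 bases before the annotated gene start, 5′ to 3′ on the gene's strand, from chr12:54203875-54204124 (minus strand) for Egln3, chr4:119108495-119108744 (plus) for Slc2a1, chr7:138909507-138909756 (minus) for Bnip3, chr8:45999851-46000100 (minus) for Ankrd37 and chr4:43506776-43507025 (plus) for Car9.
Egln3: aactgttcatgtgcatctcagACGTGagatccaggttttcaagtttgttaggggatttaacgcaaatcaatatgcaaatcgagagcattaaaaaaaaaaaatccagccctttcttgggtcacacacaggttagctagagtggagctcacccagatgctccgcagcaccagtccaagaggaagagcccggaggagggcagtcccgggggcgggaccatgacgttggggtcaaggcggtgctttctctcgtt
Slc2a1: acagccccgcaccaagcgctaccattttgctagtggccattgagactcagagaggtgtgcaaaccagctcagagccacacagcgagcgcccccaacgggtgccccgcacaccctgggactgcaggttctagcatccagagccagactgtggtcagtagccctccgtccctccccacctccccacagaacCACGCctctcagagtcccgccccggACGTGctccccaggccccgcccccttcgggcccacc
Bnip3: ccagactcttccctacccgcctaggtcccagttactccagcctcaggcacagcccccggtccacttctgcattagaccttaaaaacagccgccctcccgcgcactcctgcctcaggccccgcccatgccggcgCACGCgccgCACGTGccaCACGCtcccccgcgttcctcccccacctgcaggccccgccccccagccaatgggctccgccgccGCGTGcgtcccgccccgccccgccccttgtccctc
Ankrd37: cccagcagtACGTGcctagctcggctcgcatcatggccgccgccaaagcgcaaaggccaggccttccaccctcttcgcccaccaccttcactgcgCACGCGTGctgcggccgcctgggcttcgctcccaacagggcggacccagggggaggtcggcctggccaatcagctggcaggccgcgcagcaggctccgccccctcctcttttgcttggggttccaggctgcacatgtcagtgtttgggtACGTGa
Car9: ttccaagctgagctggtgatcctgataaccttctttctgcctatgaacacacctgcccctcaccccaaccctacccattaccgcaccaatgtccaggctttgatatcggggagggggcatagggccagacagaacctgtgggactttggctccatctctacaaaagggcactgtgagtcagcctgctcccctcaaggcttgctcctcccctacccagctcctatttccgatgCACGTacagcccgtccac
Bnip3 held 5 matches, which start 117, 108, 107, 99 and 35 bases before the gene start, and those at 108 and 107 overlap in the palindrome CACGTG. Ankrd37 held 4 matches, of which those at 155 and 152 overlap, Slc2a1 held 2, and Egln3 and Car9 held 1 each. Windows were found for 23 members of the HIF list (34 windows, since some genes have several starts), and 28 windows (82.4%) held ACGTG or GCGTG. The share was 56% of the 12623 windows of tested genes and 38.6% of all 32851 windows in the table. ACGTG alone was in 55.9% of the HIF list windows, 21.7% of the windows of tested genes and 16.6% of all windows, and GCGTG alone in 55.9%, 44.9% and 28.2%. The list was assembled from known targets, so this share is a description of the list and not a result of these libraries. The CREB-type letters TGACGTCA were in 2.94% of the HIF list windows, 2.54% of the windows of tested genes and 1.55% of all windows, and the AP-1-type letters TGACTCA in 5.88%, 3.16% and 4.46%. Among the 12 largest increases, 7 genes had windows (11 in all), and 4 of these windows (36.4%) held ACGTG or GCGTG. Among the 12 largest decreases 5 of 10 windows (50%) did. A match is a run of letters and not a shown binding site.

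Glycolysis genes moved in the same direction, and Slc2a1, Slc16a3, Ldha and Pgk1 belong to both lists. Of 20 tested, 7 were called higher, beside 2.09% of all genes. At any fold 18 rose (90.0%) and 1 fell (5%), beside 22.9% and 30.0% of all genes, and 1 did not pass the test, with a median Log2FC of 0.88. Slc2a1, the glucose transporter GLUT1, was at 111 and 93.4 CPM on day 10 and 390 and 406 CPM on day 14, a ratio of 3.90 (Log2FC 1.96, SE 0.05, adjusted p = 1.98e-20). Slc2a3, the transporter GLUT3, was at 7.58 and 7.93 CPM and then at 18.8 and 19.7 CPM. Down the pathway, Hk1 (Log2FC 0.85), Hk2 (0.87), Gpi1 (0.85), Pfkl (0.94), Pfkp (1.04), Aldoa (1.07), Aldoc (1.22), Tpi1 (0.94), Pgam1 (0.78), Eno1 (0.56), Pkm (0.51) and Ldha (0.70) all rose. Slc16a3, which exports lactate, rose from 64.8 and 59.7 CPM to 148 and 152 CPM (Log2FC 1.26). The exception was Eno2, the neuron-type enolase, which fell from 27.9 and 25.0 CPM to 18.4 and 18.0 CPM. Slc16a1, a monocarboxylate transporter that can work in either direction, had a Log2FC of 0.09 (adjusted p = 0.0704). Gapdh (Log2FC 1.20) and Pgk1 (0.89) have many processed copies in the mouse genome, and their CPM depends on the handling of reads that map to several places.

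**Figure D3:**
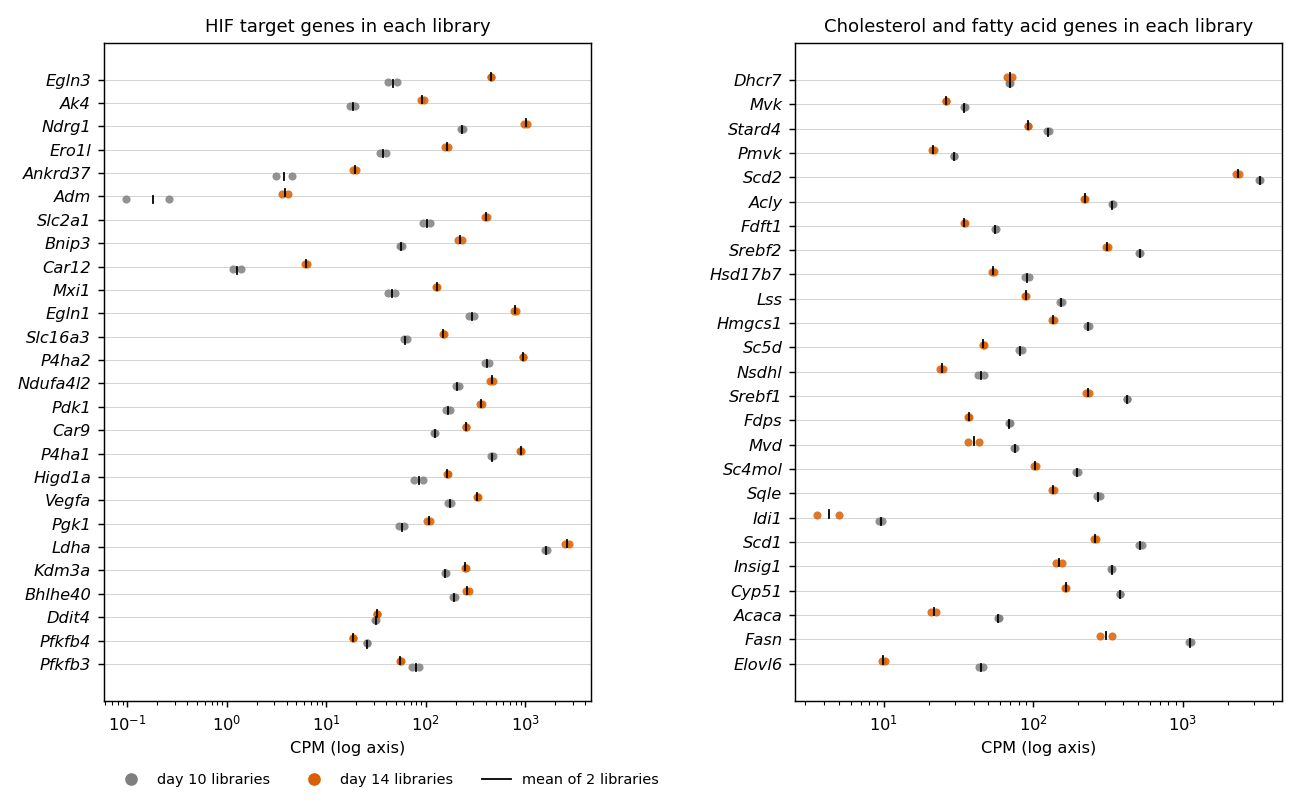
CPM on log axes in each library for the 26 HIF target genes (left) and 25 of the 28 cholesterol and fatty acid synthesis genes (right), with day 10 libraries in grey, day 14 libraries in orange and bars at the mean of 2 libraries. Orange points lie to the right of grey ones for most HIF targets, with Pfkfb3 and Pfkfb4 the other way, and to the left for all lipid genes plotted except Dhcr7.

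Genes of cholesterol and fatty acid synthesis formed the lowest list. Of 28 tested, 10 were called lower, beside 0.872% of all genes. At any fold 27 fell (96.4%), beside 30.0% of all genes, with a median Log2FC of -0.88. The single member that did not pass was Dhcr7, the enzyme of the final step to cholesterol, at 69.2 and 69.8 CPM on day 10 and 72.2 and 66.9 CPM on day 14. In fatty acid synthesis, Fasn, the fatty acid synthase, was at 1105 and 1135 CPM and then at 335 and 278 CPM, a 3.65-fold lower mean (Log2FC -1.87, SE 0.05, adjusted p = 3.40e-20). Elovl6, which elongates palmitate, was at 43.5 and 46.2 CPM and then at 10.1 and 9.74 CPM (Log2FC -2.07). Acaca, which makes the malonyl-CoA that Fasn uses, was at 58.6 and 58.2 CPM and then at 20.8 and 22.3 CPM. In the sterol branch, Cyp51, the lanosterol demethylase, was at 377 and 381 CPM and then at 166 and 163 CPM (Log2FC -1.20). The sterol-sensing regulator Insig1 (Log2FC -1.17) fell with the enzymes. The transcription factor genes themselves also fell, Srebf1 from 420 and 423 CPM to 224 and 237 CPM and Srebf2 from 520 and 511 CPM to 316 and 308 CPM. Scd1, Sqle and Idi1 had a Log2FC at or within 0.01 of -1, so their side of the call threshold is not firm. Of 7 adipocyte markers only Cebpa, a lipogenic transcription factor, was tested, and it fell from 29.9 and 27.9 CPM to 18.6 and 17.3 CPM (Log2FC -0.66). The adipocyte markers summed to 30.6 and 28.7 CPM on day 10 and 19.3 and 17.6 CPM on day 14, and their part in the lipid result was not tested.

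The other large decreases fell outside the lipid synthesis list. Abcd2, the peroxisomal importer of very long chain fatty acids, went from 12.5 and 16.9 CPM to 2.68 and 2.58 CPM. Vwf (ENSMUSG00000001930, chr6:125523737-125663642) showed the largest fall. This gene encodes von Willebrand factor, an adhesive glycoprotein best known from endothelium, and was at 123 and 131 CPM on day 10 and 17.9 and 19.0 CPM on day 14. Its mean was 6.90-fold lower on day 14 (Log2FC -2.72, SE 0.11, adjusted p = 7.43e-17), in libraries where Cdh5, Tie1 and Emcn were listed at 0. Guidance genes were Slit2, a repulsive ligand (120 and 123 CPM, then 29.0 and 30.1 CPM), and Plxna2, a semaphorin receptor (176 and 203 CPM, then 66.8 and 64.0 CPM). Signalling and adhesion genes were Pik3r3, a regulatory subunit of PI3-kinase (Log2FC -1.77), Itgb8, an integrin subunit that activates TGF beta (-1.58), and Shisa2, which retains receptors in the endoplasmic reticulum (-1.52). Chac1, which degrades glutathione, fell from 64.9 and 56.0 CPM to 20.5 and 21.5 CPM.

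Of 27 Wnt pathway genes tested, 2 were called higher and 4 lower, beside 2.09% and 0.872% of all genes. At any fold 7 rose (25.9%, near the 22.9% of all genes) and 12 fell (44.4%, beside 30.0%), with a median Log2FC of -0.16. The secreted antagonists Sost and Wif1 were the 2 called higher, Wif1 going from 125 and 128 CPM to 251 and 266 CPM (Log2FC 1.03, or 0.99 without replicate 2 of day 14, which ends its call). Notum, which inactivates Wnt ligands by removing their lipid, was at 29.1 and 34.1 CPM and then at 8.51 and 8.50 CPM (Log2FC -1.77), and its span overlaps 4732444A12Rik on the other strand. Lef1, the nuclear partner of beta-catenin, fell from 17.6 and 15.6 CPM to 5.95 and 6.14 CPM. Apcdd1, an inhibitor at the membrane, fell from 18.3 and 20.9 CPM to 6.03 and 6.94 CPM, and the ligand gene Wnt4 had a Log2FC of -1.22. Axin2, a feedback inhibitor, fell with a Log2FC of -0.90. Of genes known to be induced by Wnt signalling, Notum, Lef1, Apcdd1, Axin2, Tcf7 (Log2FC -0.34) and Znrf3 (-0.77) fell, Rnf43 (0.73), Ccnd1 (0.26) and Dkk1 (0.85) rose, and Nkd1 (0.31) and Nkd2 (0.02) did not pass the test. Znrf3, Rnf43 and Ccnd1 are not in the list of 27 and were added after their values were seen. Lgr6, a receptor for R-spondins, rose from 139 CPM in both libraries to 240 and 225 CPM, and the co-receptor gene Lrp5 rose with a Log2FC of 0.68, while Lrp6 (-0.23) and Lrp4 (-0.44) fell.

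Mineralization genes went both ways. Of 16 tested, 5 rose (31.2%) and 9 fell (56.2%), beside 22.9% and 30.0% of all genes, with a median Log2FC of -0.34. Bglap, which encodes osteocalcin, fell from 53.8 and 54.4 CPM to 22.6 and 22.1 CPM (Log2FC -1.24, SE 0.10, adjusted p = 2.60e-11), and its near-identical neighbour Bglap2 from 22.0 and 22.7 CPM to 11 and 12 CPM, so reads may be split between them. Ank, a pyrophosphate and ATP exporter, fell from 229 and 248 CPM to 120 CPM in both libraries. Sparc (Log2FC 0.47, but 0 with quantile normalization) and Phospho1, the phosphatase of matrix vesicles (0.54), rose, and Alpl, the tissue-nonspecific alkaline phosphatase, had a Log2FC of 0.05. Of 16 osteoblast lineage transcription factors, 4 rose (25.0%, near the share of all genes) and 9 fell (56.2%), with a median of -0.29. Vdr, the vitamin D receptor (Log2FC 0.58), Dlx3 (0.33) and Sp7, which encodes osterix (0.18), rose, and Twist2 (-0.72) and Mef2a (-0.58) fell along with Lef1.

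Of 25 collagen chains tested 7 rose (28.0%) and 8 fell (32.0%), shares near those of all genes tested (22.9% and 30.0%), and their median was 0.05. Col15a1, a basement membrane zone collagen, was called higher, with 25.8 and 23.6 CPM on day 10 and 77.8 and 73.0 CPM on day 14. Col24a1 (Log2FC 0.98) and Col27a1 (0.88) rose, and Col23a1 (-0.87), Col5a3 (-0.59) and Col6a2 (-0.54) fell. The main bone collagen genes Col1a1 and Col1a2 had Log2FC values of 0.21 and 0.20 that did not pass the test. Mmp13, a collagenase that osteocytes use in perilacunar remodelling, rose from 11.7 and 11.5 CPM to 33.5 and 31.7 CPM (Log2FC 1.41, adjusted p = 3.73e-15). Of the 21 proteases and inhibitors tested, 2 rose (9.52%), Mmp13 and Timp1 (Log2FC 0.57), and 9 fell (42.9%), led by the aggrecanase Adamts5 at -1.12. Aggrecan itself, Acan, was called higher (Log2FC 1.56), while the 8 chondrocyte markers together summed to 71.0 and 71.6 CPM on day 10 and 123 and 104 CPM on day 14. That sum followed Acan, since of the 6 markers tested 5 had a negative Log2FC, 2 fell and Acan alone rose, with a median of -0.27. Among small leucine-rich proteoglycans Ogn (Log2FC 0.92) and Bgn (0.64) rose, and Omd, or osteomodulin, fell from 69.9 and 80.5 CPM to 28.4 and 31.4 CPM.

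Genes of the contractile apparatus and other targets of serum response factor (SRF) stood mostly higher on day 14. Of 19 tested, 5 were called higher, beside 2.09% of all genes, and 14 rose (73.7%) and 2 fell (10.5%), beside 22.9% and 30.0% of all genes, with a median Log2FC of 0.59. Acta2, smooth muscle alpha actin, was at 38.9 and 30.4 CPM on day 10 and 192 and 196 CPM on day 14, a ratio of 5.60 (Log2FC 2.46, SE 0.06, adjusted p = 3.60e-21). Tagln, the actin-binding protein transgelin, was at 22.8 and 19.6 CPM and then at 70.0 and 83.1 CPM, and Myl9, a myosin regulatory light chain, at 29.3 and 25.8 CPM and then at 92.0 and 103 CPM. Ccn1 (listed as Cyr61), a matricellular protein, was at 181 and 164 CPM and then at 550 and 503 CPM. Acta2, Tagln and Myl9 each overlap another expressed gene on the opposite strand (Stambpl1, Pcsk7 and Gm14230). Srf itself rose from 132 and 126 CPM to 186 and 192 CPM (Log2FC 0.55). Flna (-0.20) and Cnn3 (-0.15) fell slightly. Of 23 immediate early genes, many of which are SRF targets, 12 rose (52.2%) and 3 fell (13.0%). Egr1 rose from 86.1 and 72.2 CPM to 200.3 and 186 CPM and Egr2 from 13.1 and 10.6 CPM to 28.4 and 25.3 CPM (Log2FC 1.28 and 1.12, the latter 0.98 and no longer called without replicate 2 of day 10), while Atf3 fell (-0.68).

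Cytoskeletal genes for dendrites changed by less. Of 13 actin bundling and membrane linker genes 8 rose (61.5%) and 1 fell (7.69%), beside 22.9% and 30.0% of all genes, within a Log2FC range of -0.31 to 0.42. Pls3, the actin bundler plastin 3, rose from 362 and 376 CPM to 471 and 503 CPM, and the linker gene Ezr fell from 99.3 and 90.2 CPM to 77.8 and 75.0 CPM. Of 12 tubulins 6 rose (50%) and 1 fell (8.33%), with Tubb5 going from 1168 and 1131 CPM to 1812 and 1915 CPM (Log2FC 0.70). Of 16 integrin subunits 3 rose (Itgb3, Itga3 and Itgb1; 18.8%) and 5 fell (31.2%), near the shares of all genes tested, and Itga10 went from 281 and 299.8 CPM to 196 and 160 CPM.

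**Figure D4:**
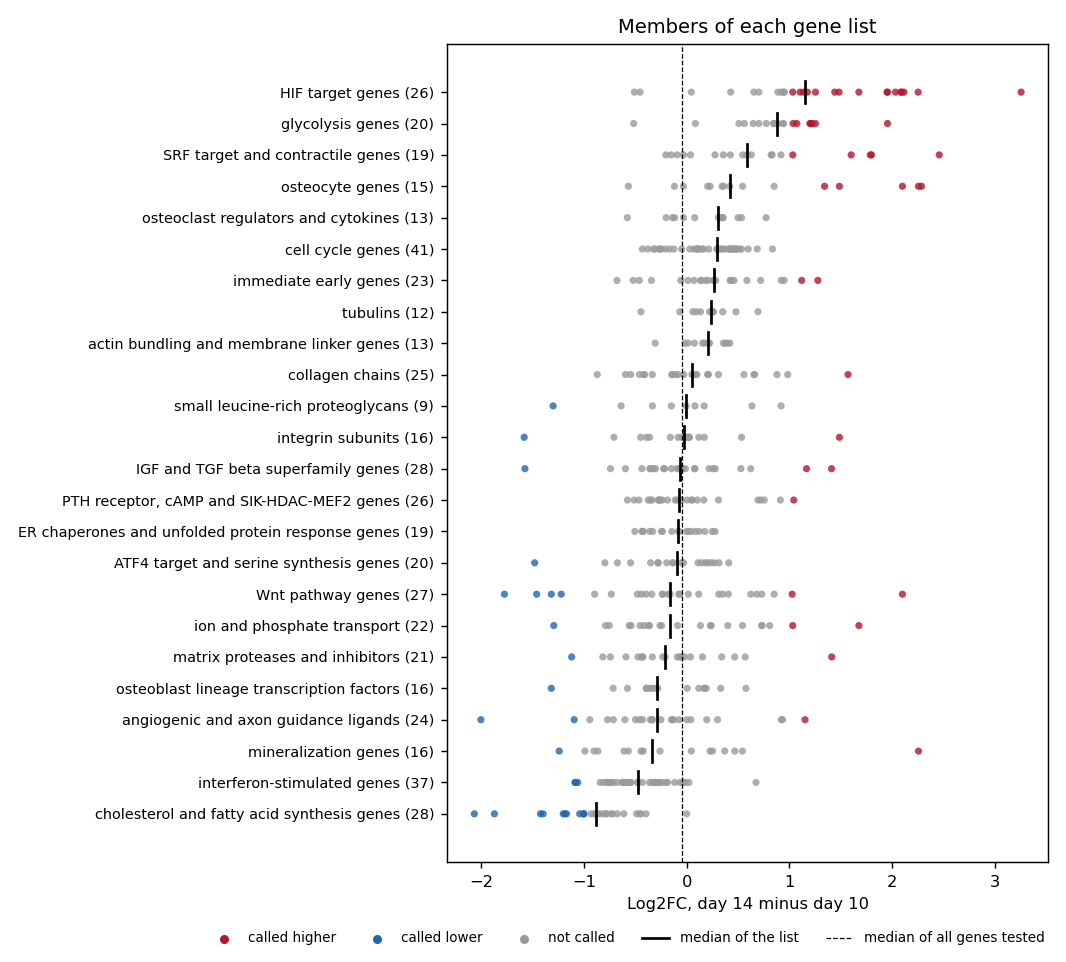
Log2FC between day 14 and day 10 of every tested member of 24 gene lists, ordered by the list median (black bar), with called genes in red (higher) or blue (lower), the number tested in parentheses and a dashed line at the median of all genes tested (-0.04). HIF targets and glycolysis stand at the top with medians of 1.16 and 0.88, and cholesterol and fatty acid synthesis at the bottom with -0.88.

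Of interferon-stimulated genes, which carry out antiviral defence, most members fell by small steps. Of 37 tested, 25 fell (67.6%), beside 30.0% of all genes, 1 rose and 11 did not pass the test, with a median Log2FC of -0.48. Cmpk2 (6.30 and 6.06 CPM, then 2.36 and 2.40 CPM), Lgals3bp (109 and 107 CPM, then 49.5 and 51.6 CPM) and Oasl2 (20.4 and 18.3 CPM, then 8.60 and 8.90 CPM) were called lower, beside 0.872% of all genes, although Oasl2 was at -0.99 and no longer called without replicate 1 of day 10. The gene that rose was Isg15, the ubiquitin-like modifier, from 38.2 and 39.5 CPM to 58.3 and 67.3 CPM. Cell cycle genes went both ways by small steps. Of 41, 24 rose (58.5%) and 10 fell (24.4%), beside 22.9% and 30.0% of all genes, with Log2FC values from -0.43 to 0.84. The mitotic genes Ube2c (65.5 and 61.1 CPM, then 109 and 118 CPM), Hmmr (Log2FC 0.69) and Aurka (0.60) rose, and the replication licensing genes Mcm7 (-0.43) and Cdt1 (-0.38) fell with the G1 cyclin gene Ccne1 (-0.32).

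Of 19 endoplasmic reticulum chaperone and unfolded protein response genes 4 rose (21.1%) and 9 fell (47.4%), beside 22.9% and 30.0% of all genes, led by Edem1 (Log2FC 0.28) and Herpud1 (-0.50). Of 20 ATF4 target and serine synthesis genes 8 rose (40.0%) and 9 fell (45.0%). Psat1, which makes serine, rose from 364 and 362 CPM to 471 and 495 CPM, and the Log2FC values of the list lay between -1.48 for Chac1 and 0.41 for Psat1. The stress sensor gene Sesn2 (-0.80) and the cystine importer gene Slc7a11 (-0.67) also fell. Of 77 ribosomal protein genes 39 fell (50.6%) and 3 rose (3.90%), with a median of -0.20, and these genes have many processed copies. Of 79 nuclear-encoded respiratory chain subunits 27 rose (34.2%) and 7 fell (8.86%), with a median of 0.08, and Ndufv3 rose from 45.5 and 44.5 CPM to 86.6 and 84.1 CPM. Of the 7 mitochondrial-genome transcripts tested 6 fell (median -0.50), and their sum was 12535 and 13225 CPM on day 10 and 10141 and 10558 CPM on day 14, while 6 others were listed at 0. Replication-dependent histone transcripts, which poly(A) selection captures poorly, summed to 149 and 145 CPM on day 10 and 71.1 and 77.2 CPM on day 14. Of 8 tested (median -0.45), 4 fell and 2 of these were called lower, beside 30.0% and 0.872% of all genes. The part of either set in the other results was not tested.

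In the parathyroid hormone pathway, 7 of 26 genes rose (26.9%) and 10 fell (38.5%), beside 22.9% and 30.0% of all genes tested. Pth1r, the receptor, rose with a Log2FC of 0.70, and Sik1, a kinase gene induced by cAMP, rose from 10.0 and 9.31 CPM to 21.9 and 20.1 CPM (Log2FC 1.04). The call of Sik1 ended without replicate 1 of day 14 (0.99) or replicate 2 of day 10 (1.00, just under the threshold). Hdac7 (0.91) and Hdac9 (0.76), class IIa histone deacetylases, rose, and the CREB coactivator genes Crtc1 (-0.46) and Crtc3 (-0.51) fell. Of 13 regulators of osteoclasts 6 rose (46.2%) and 1 fell (7.69%). Lif rose from 7.22 and 5.74 CPM to 12.2 and 11.3 CPM, Tgfb2 had a Log2FC of 0.50, and Tgfb1 fell from 275 and 278 CPM to 184 and 186 CPM. Of 28 IGF and TGF beta superfamily genes 5 rose (17.9%) and 9 fell (32.1%), again near the shares of all genes. Igfbp2 (2.73 and 3.03 CPM, then 8.54 and 10.1 CPM) and Bmp8a (40.0 and 40.4 CPM, then 87.7 and 95.8 CPM) were called higher. Of 24 angiogenic and guidance ligands 5 rose (20.8%, near the share of all genes) and 12 fell (50%, beside 30.0%). Slit3, a close relative of Slit2, rose from 65.5 and 59.0 CPM to 148 and 131 CPM (Log2FC 1.15), and Angpt1, the vessel-stabilizing ligand, fell from 20.2 and 22.2 CPM to 10.1 and 8.69 CPM (Log2FC -1.10, or -0.99 without replicate 2 of day 14, which ends its call). Of 22 ion and phosphate transport genes 9 rose (40.9%) and 10 fell (45.5%). Car12, a carbonic anhydrase, rose from 1.15 and 1.39 CPM to 6.35 and 6.14 CPM, and the mechanosensitive channel gene Piezo2 fell from 23.9 CPM in both libraries to 10.3 and 8.14 CPM (Log2FC -1.29).

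The genes called between day 10 and day 14 were then read in the cells sorted on day 17, which share no library with them. In that comparison of CD61high with CD61low cells (edgeR quasi-likelihood test), 585 of 12077 genes were called higher (4.84%) and 528 lower (4.37%). With the sorted libraries scaled by size alone the counts were 316 and 963, and the shares below rest on the TMM-scaled calls. Of the 266 genes called higher on day 14, 247 were tested in the sorted cells, and 112 (45.3%) were called higher in CD61high cells and 6 (2.43%) lower. Those 112 were 20% of the 560 genes called higher in the sort that were tested in both experiments. The median CD61high minus CD61low Log2FC of the 247 was 0.94, beside 0.00 over the 11445 genes tested in both. Phex was at 10.5 ± 1.10 CPM in CD61low and 47.2 ± 10.6 CPM in CD61high cells (SD, n = 3), and Ackr3 was at 53.9 ± 10.8 CPM and 163 ± 15.8 CPM. Sost was at 15.9 ± 1.62 CPM and 36.4 ± 4.62 CPM (Log2FC 1.20, adjusted p = 1.89e-05 with edgeR). Itgb3 encodes the protein used for the gate, and its Log2FC of 4.30 is no independent value. Of the 26 HIF targets 16 were called higher in CD61high cells, with a median Log2FC of 1.05. The SRF and contractile list, in contrast, had a median of 0.07 in the sort, and Acta2 had 0.02. Dmp1, which did not pass between the days, had a Log2FC of 4.29 in the sort. Its levels there were low, at 0.594 ± 0.276 CPM in CD61low and 11.7 ± 3.96 CPM in CD61high cells.

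For genes called lower on day 14 the sorted cells gave no common direction. Of 111 such genes 96 were tested in the sort, where 17 (17.7%) were called lower and 12 (12.5%) higher. Of all genes tested in both experiments, 4.39% were called lower and 4.89% higher in the sort. The 17 and 12 genes are 3.39% and 2.14% of those called that way in the sort among genes tested in both. The median of the 96 was -0.11. Vwf, the largest fall, was at 18.0 ± 3.14 CPM in CD61low and 80.3 ± 9.77 CPM in CD61high cells (Log2FC 2.16, adjusted p = 9.65e-07 with edgeR). Notum (Log2FC 1.86) and Bglap (2.45) were likewise lower on day 14 and higher in CD61high cells. Elovl6 (-1.39), Pik3r3 (-1.13) and Chac1 (-1.15) were lower in both. The lipid synthesis list had a median of 0.02 in the sort, and Elovl6 was its only member called. The interferon-stimulated list had a sort median of -2.13. Of its 33 tested members 27 were called lower in CD61high cells, beside 4.37% of all genes tested in the sort. The days and the sort differ in RNA extraction and quantification, and their Log2FC values are given side by side without a test of the difference.

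**Figure D5:**
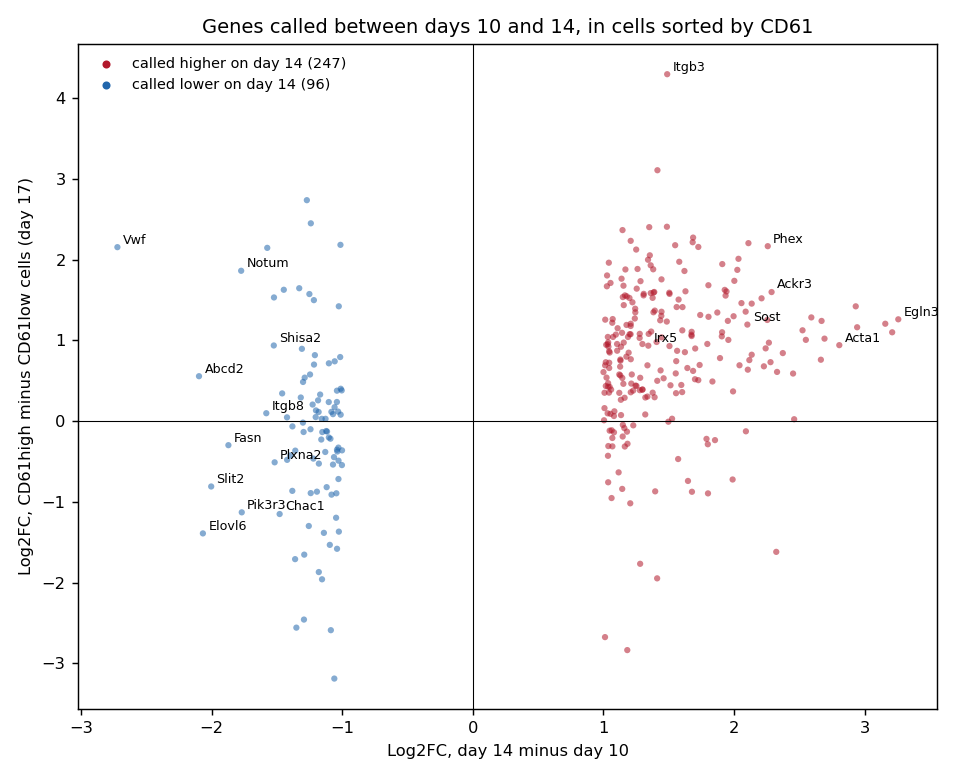
CD61high minus CD61low Log2FC in cells sorted on day 17 (vertical axis) against the day 14 minus day 10 Log2FC (horizontal axis) for genes called between the days and tested in the sort, 247 called higher in red and 96 called lower in blue. Most red points lie above 0, blue points lie on both sides, and Vwf and Notum are at the upper left.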

How the data were processed

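The authors mapped reads of the differentiation libraries with STAR and summarized them by gene with HTSeq-count, and the deposited values are CPM, scaled to a common total of reads on genes per library. Every CPM value lay within 0.01 of a whole number of reads, so reads were recovered. For the sorted cells the authors deposited Salmon estimated counts per transcript, which were summed per gene and rounded, and TPM values that were not used. The submitters' processing notes name GRCm39. Gene names in the CPM table follow an older annotation, and 34199 of 39179 identifiers (87.3%) are in GENCODE M39, the source of gene coordinates.

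Genes with CPM above 1 in at least 1 of 8 differentiation libraries were compared with limma 3.58.1 in R 4.3.3 on log2(CPM + 1), with a mean-variance trend and Benjamini-Hochberg adjustment over all genes tested. Days 1 and 7 entered the filter and the variance estimate. SE is limma's standard error of the Log2FC. Replicates are described by the study as biological duplicates. The sorted cells were compared with edgeR 4.0.16 (quasi-likelihood test, TMM) on genes that reached 5 normalized counts in each library of the 6, which held 18815602 to 19220064 estimated counts. Steps were tested on simulated data.

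Members and gene lists were chosen with earlier results of these data known. Named are the 12 largest called increases and decreases without overlap between the days and averaging 5 CPM or more, all tested osteocyte genes, and up to 3 members per direction of each other list that passed the test with a mean of at least 1 CPM. Other members were named after their values were seen, to complete a pathway. Whether HTSeq-count used strand is not given in the sources used here, and 28 of the 157 genes named by rule overlap another gene above 1 CPM. Some genes that meet this rule are not reported here. Days 1 and 7 were not otherwise used.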

Additional observations from a re-analysis of the deposited data

How the results depend on the processing

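With a pseudocount of 0.1 CPM 425 genes were called higher and 246 lower, with edgeR on the recovered reads 502 and 227, and with DESeq2 1.42.0 on those reads 441 and 197, against 266 and 111. All 266 and 103 of the 111 were also called by edgeR. TMM scaling gave 299 and 86, and leaving out a library gave 255 to 299 and 102 to 120. The median Log2FC of all genes was 0.013 with TMM, 0.011 with edgeR, 0.0022 with DESeq2 and 0 with no filter on low values. The 12 largest increases and 12 largest decreases had the same direction and side of the test in all 504 refitted values of these 24 genes. Of the 157 genes named by rule 18 no longer passed in at least 1 refit (among them Ostn, Tnfrsf11b, Sparc, Dlx3, Sp7, Itgb1, Flna, Cnn3 and Ccne1), and 3 (Dmp1, Pdpn and Gja1) passed in at least 1. Tnfsf11 changed sign with TMM (0.0026), edgeR (0.042), DESeq2 (0.0196) and when a library was left out (-0.20 to 0.13). The cause of these moves was not tested. Of the lipid synthesis genes 7 to 11 were called lower over the alternatives. Of the SRF target and contractile genes 4 to 6 were called higher over them, with 4 when a mean of at least 5 CPM was required. Same-numbered replicates of day 10 and day 14 did not deviate together (r = -0.03 across genes, which are not independent), and the fit with the replicate block gave the same 266 and 111 calls. Scaling the sorted libraries by size alone gave 316 genes higher and 963 lower against 585 and 528. With 2 libraries a day, the spread is estimated mainly from the other genes and days, and changes of genes near 1 CPM rest on few reads.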

Other observations

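Genes of glycogen metabolism were gathered after Pygl was seen among the largest increases, so their counts are a description. Of 19 such genes tested, 6 were called higher, beside 2.09% of all genes. At any fold 11 rose and 3 fell, beside 22.9% and 30.0% of all genes, and 5 did not pass the test. Gys1, the muscle-type glycogen synthase, was at 52.3 and 48.3 CPM on day 10 and 153 and 155 CPM on day 14 (Log2FC 1.60). The branching enzyme gene Gbe1 was at 36.6 and 34.6 CPM and then at 124 and 128 CPM. Pgm1 (listed as Pgm2), which interconverts glucose phosphates, was at 71.8 and 65.7 CPM and then at 222 and 230 CPM. Epm2a, which encodes the glycogen phosphatase laforin, had a Log2FC of 1.62 and Stbd1, a glycogen-binding protein, had 1.06. Ppp1r3c, a subunit that targets a phosphatase to glycogen, fell from 16.9 and 16.3 CPM to 9.30 and 9.78 CPM, Gaa, the lysosomal glucosidase, fell with a Log2FC of -0.19, and Pygb, the brain-type phosphorylase, had 0.13 (adjusted p = 0.0126).

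Cytoskeletal genes best known from striated muscle were likewise gathered after Acta1 and Smtnl2 were seen. Of the 22 genes gathered, 13 passed the filter and were tested. Of these, 9 were called higher, beside 2.09% of all genes, and the median Log2FC was 1.805. Acta1 and Smtnl2, which prompted the list, are counted in both values. The counts and the median are therefore a description and cannot be ranked against the other lists. Jph2, which holds the plasma membrane to the sarcoplasmic reticulum, was at 9.59 and 8.28 CPM and then at 44.5 and 46.5 CPM. The chaperone gene Hspb7 was at 52.8 and 50.9 CPM and then at 219 and 244 CPM, and Cryab, which encodes alpha-B crystallin, at 119 and 128 CPM and then at 401 and 429 CPM. Nexn (Log2FC 2.04), Synpo2l (2.14) and Myh7b (1.81) moved in the same direction. Actc1 and Myh7 were listed at 0, which for genes with near-identical copies can depend on how shared reads were counted, and Tcap, Csrp3 and Myoz2 did not reach 1 CPM. Des, a muscle marker, rose with a Log2FC of 0.85.

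Among HIF subunit genes, seen after the HIF targets, Hif1a rose from 227 and 234 CPM to 275 and 274 CPM (Log2FC 0.25) and Epas1, which encodes HIF-2 alpha, from 68.2 and 70.9 CPM to 129 and 122 CPM (Log2FC 0.84). Hif1an, the asparaginyl hydroxylase, had a Log2FC of -0.00098 (SE 0.04). Among the 12 genes lower on day 14 and higher in CD61high cells, chosen after their values were seen, were Gli1, the transcriptional effector of hedgehog signalling (73.2 and 71.1 CPM, then 28.3 and 31.2 CPM, with a sort Log2FC of 1.58), and Ackr4, a chemokine scavenger (15.5 CPM in both libraries, then 6.47 and 5.27 CPM, with a sort Log2FC of 2.74).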
